A study of Mus musculus with 59 samples.

Results

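Acute phase proteins are made by the liver and released into the blood during infection or injury, and 36 genes for these proteins and for IL-6 and IL-1 signalling were followed across 59 mouse liver arrays. The list holds serum amyloids, lipocalin 2, orosomucoids, haptoglobin, hemopexin, pentraxins, fibrinogen chains, protease inhibitors, endotoxin recognition proteins, cytokine receptors and the transcription factors and feedback inhibitors behind them. Of the 36 genes, 35 were measured by a probe set that names 1 gene, out of 18193 genes measured in this way. Serpina3m, a mouse antichymotrypsin relative, had no such probe set and was not analysed here. Where a gene had several probe sets, the 1 with the highest mean over all arrays stood for it.

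All livers came from male C57BL/6 mice that were 6 weeks old and spent 2 weeks on their diet before treatment. On the LRD-5001 diet, and separately on the AIN-76A diet, mice received no added arsenic or, for 5 weeks, sodium arsenite at 10 ppb in food, 10 ppb in drinking water or 100 ppb in drinking water. Other mice on AIN-76A received 1 intraperitoneal injection 8 h before the liver was taken. It held 1 mg/kg dexamethasone with 1 mg/kg arsenite, 1 mg/kg arsenite, 1 mg/kg dexamethasone, or saline. Each group had 5 arrays from labelled biological replicates, except AIN-76A with 100 ppb water, which had 4. The labels do not say whether animals shared cages, so p-values reflect only how far these samples spread. Arrays are named here by group and replicate letter.

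The acute phase response runs from cytokine to receptor to transcription factor. IL-6 binds its receptor and the shared chain gp130, encoded by Il6st, and activates STAT3. IL-1 acts through NF-kB and the C/EBP factors, and SOCS3 feeds back on gp130 signalling. Glucocorticoids are known to act together with these cytokines on many acute phase genes in hepatocytes. In mice the serum amyloids and serum amyloid P are the strongly induced members, whereas C-reactive protein moves little.

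Several of these genes lie in clusters of the GRCm38.p6 assembly. The 4 serum amyloid genes occupy chromosome 7 from the start of Saa3 at 46711998 to the end of Saa2 at 46754313, and the 3 fibrinogen genes occupy chromosome 3 from Fgg at 83007724 to Fgb at 83049863. RefSeq promoter windows, each 250 bases before to 50 bases after an annotated start, were at hand for 29 of the 36 members. The 250 bases before the start are given for 6 members, chosen because their levels vary most between livers or differ between diets in the results that follow. Each is written 5′ to 3′ on the strand of its gene, from RefSeq on GRCm38.p6. Capitals mark letters that match TTNCNNAA (a C/EBP pattern), TTCNNNGAA (STAT), CTGGGAA (the core of the IL-6 response element) or an NF-kB pattern (GGG, any pair of bases, TTTCC) on either strand, where N is any base. Matches of neighbouring patterns can run together.
Saa2 (chr7:46751583-46751832, plus strand): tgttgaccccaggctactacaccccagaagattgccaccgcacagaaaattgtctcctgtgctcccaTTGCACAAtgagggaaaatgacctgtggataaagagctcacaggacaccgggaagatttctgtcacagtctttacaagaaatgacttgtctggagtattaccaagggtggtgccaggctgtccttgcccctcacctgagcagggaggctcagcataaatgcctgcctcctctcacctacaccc
Lcn2 (chr2:32387740-32387989, minus strand): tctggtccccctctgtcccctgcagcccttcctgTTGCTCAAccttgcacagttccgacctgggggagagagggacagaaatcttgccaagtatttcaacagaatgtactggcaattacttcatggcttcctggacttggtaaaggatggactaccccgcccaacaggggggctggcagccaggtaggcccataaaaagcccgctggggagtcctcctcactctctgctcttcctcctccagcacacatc
Orm2 (chr4:63362199-63362448, plus strand): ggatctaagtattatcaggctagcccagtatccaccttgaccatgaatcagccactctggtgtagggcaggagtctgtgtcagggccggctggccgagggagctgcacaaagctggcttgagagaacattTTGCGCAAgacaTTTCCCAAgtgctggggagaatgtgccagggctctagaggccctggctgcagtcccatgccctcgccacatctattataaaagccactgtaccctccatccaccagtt
Apcs (chr1:172895055-172895304, minus strand): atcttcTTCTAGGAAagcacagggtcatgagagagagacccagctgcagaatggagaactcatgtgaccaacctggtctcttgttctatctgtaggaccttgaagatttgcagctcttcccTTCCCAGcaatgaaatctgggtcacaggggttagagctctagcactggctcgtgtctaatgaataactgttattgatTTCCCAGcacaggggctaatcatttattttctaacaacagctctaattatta
Fgg (chr3:83007474-83007723, plus strand): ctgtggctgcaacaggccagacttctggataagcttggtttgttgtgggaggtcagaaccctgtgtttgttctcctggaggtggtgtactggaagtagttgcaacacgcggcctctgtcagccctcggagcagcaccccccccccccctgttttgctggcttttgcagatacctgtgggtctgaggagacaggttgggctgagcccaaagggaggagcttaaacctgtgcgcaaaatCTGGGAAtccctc
Steap4 (chr5:7960222-7960471, plus strand): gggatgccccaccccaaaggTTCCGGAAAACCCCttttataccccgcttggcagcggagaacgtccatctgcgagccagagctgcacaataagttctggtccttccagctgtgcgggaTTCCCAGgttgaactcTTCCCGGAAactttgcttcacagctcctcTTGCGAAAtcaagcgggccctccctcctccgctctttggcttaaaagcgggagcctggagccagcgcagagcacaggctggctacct

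The TTNCNNAA match of Saa2 begins at base -183 from the start and that of Lcn2 at base -216. Orm2 holds a pair of them that begin at bases -120 and -108. Apcs holds CTGGGAA, read on the other strand, beginning at bases -129 and -52, and a TTCNNNGAA match at base -244. Fgg holds CTGGGAA beginning at base -13. In Steap4 the NF-kB pattern at base -226 overlaps a C/EBP pattern at base -230, and a STAT pattern begins at base -116. Over the full windows, 17 of 29 members (58.6%) held TTNCNNAA, against 40.7% of all 32851 RefSeq windows of that length. TTCNNNGAA stood in 7 members (24.1%) against 8.3% of all windows, and CTGGGAA in 6 members (20.7%) against 11.1%. The NF-kB pattern stood in 4 members (13.8%) against 1.63%. A glucocorticoid receptor pattern (G, any base, ACA, any 3 bases, TGT, any base, C) stood in 1 member, Serpina3n (3.45%), against 0.475%. A match describes the letters only.

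In each group 1 array stood apart by the first principal component of deviations from group means. These were array B of LRD-5001 controls, C of 10 ppb food, F of 10 ppb water and D of 100 ppb water on LRD-5001, array C of AIN-76A controls, D of 10 ppb food, C of 10 ppb water and D of 100 ppb water on AIN-76A, and array E with both agents, D with arsenite, C with dexamethasone and F with saline. The upper quartile of their log2 values was 3.73 to 4.03, against 3.98 to 4.29 on the other 47 arrays. The member score, defined next, was highest of its group in the array apart in 2 groups, LRD-5001 and AIN-76A controls, and lowest in 3. Without these 12 arrays, limma's adjusted test called 18 members in place of 17 for the average diet difference, 0 in place of 1 between diets in controls, 11 in place of 10 between diets at 100 ppb water, and 5 in place of 0 for 100 ppb water on AIN-76A. It called 0 members in each other comparison, with or without them.

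The level of the whole list was summarised per array as a score, the mean log2 value of the 35 measured members. A product score covers the 23 secreted or acute phase proteins and a signalling score the 12 receptors, transcription factors and inhibitors. Over the arrays exposed for 5 weeks, the score had a lowest value of 7.71, a median of 7.99 and a highest value of 9.37 on LRD-5001, against 7.74, 8.75 and 10.72 on AIN-76A. The product score ran 8.71, 8.99 and 10.94 on LRD-5001, against 8.80, 10.13 and 12.08 on AIN-76A. The signalling score ran 5.80, 6.13 and 6.38 on LRD-5001, against 5.51, 6.18 and 8.12 on AIN-76A. The diets overlapped in all 3 scores, and the AIN-76A arrays reached higher.

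**Figure D1:**
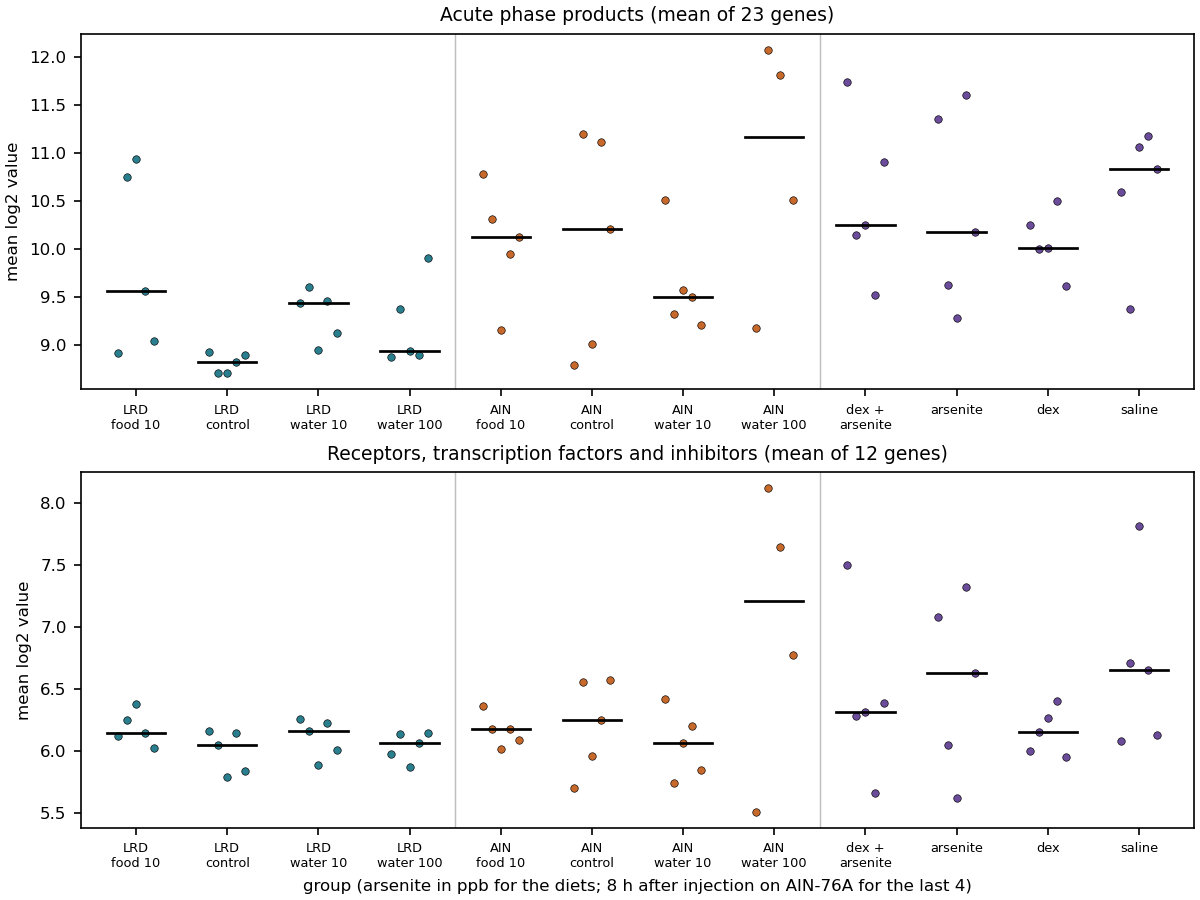
Product score (mean log2 value of 23 acute phase proteins) and signalling score (mean log2 value of 12 signalling genes) of every array, by group. Each point is 1 array and each black line a group median. The LRD-5001 controls sit in a narrow band, with product scores between 8.71 and 8.93, whereas the AIN-76A controls spread between 8.80 and 11.20.

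The group that varied least was LRD-5001 without added arsenic, with a score of 7.85 ± 0.11 (SD, n = 5). The score was 8.59 ± 0.67 with 10 ppb in food on LRD-5001, 8.21 ± 0.23 with 10 ppb in water and 8.12 ± 0.32 with 100 ppb in water (SD, n = 5 each). On AIN-76A it was 8.73 ± 0.43 with 10 ppb in food, 8.40 ± 0.42 with 10 ppb in water (SD, n = 5 each) and 9.57 ± 1.27 with 100 ppb in water (SD, n = 4), against 8.74 ± 0.85 without added arsenic (SD, n = 5). After injection it was 9.11 ± 0.77 with both agents, 9.08 ± 0.92 with arsenite and 8.73 ± 0.26 with dexamethasone, against 9.26 ± 0.57 with saline (SD, n = 5 each). The spread within a group was as large as most differences between groups. These are whole livers, in which fewer cells of a type and less RNA per cell cannot be told apart.

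Within groups, individual members differed widely in how much they moved between mice. The SD within groups was 2.27 for Lcn2, which encodes the iron-siderophore binding protein lipocalin 2. It was 2.13 for Orm2, an orosomucoid, 1.97 for Saa3 and 1.93 for Saa2, against a median of 0.23 over all 18193 genes and 0.62 over the members. The 3 fibrinogen chains stood at the other end, with 0.18 for Fga, 0.16 for Fgb and 0.13 for Fgg. Of the 35 members, 30 had an SD above the median of all genes. Lcn2 ran between 2.39 and 12.50 over the 59 arrays, a range of 10.1 log2 units.

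Many members were high on the same livers, whether they varied much or little. After subtraction of group means, the correlation over 59 arrays in 12 groups between a member and the mean of the other members was 0.94 for Serpina3n and for Apcs, 0.92 for Orm1 and 0.91 for Orm2. It was also 0.88 for Fgb and 0.86 for Fgg, which varied little, and 0.58 for A2m and 0.61 for Cd14, which varied more. It was 0.22 for Nfkbia, the NF-kB inhibitor, and -0.25 for Lifr, a receptor of the IL-6 family. The liver with the highest Saa2 of its group was also the highest for Apcs, Orm1, Hp and Itih4 in 10 of 12 groups. For Lifr, Osmr and Nfkbia this was so in 2 of 12 groups. These correlations describe the arrays, which share a platform and a normalization. Members that move together on the same livers are not independent. The counts of members above or below 0 given below are therefore not counts of separate results.

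**Figure D2:**
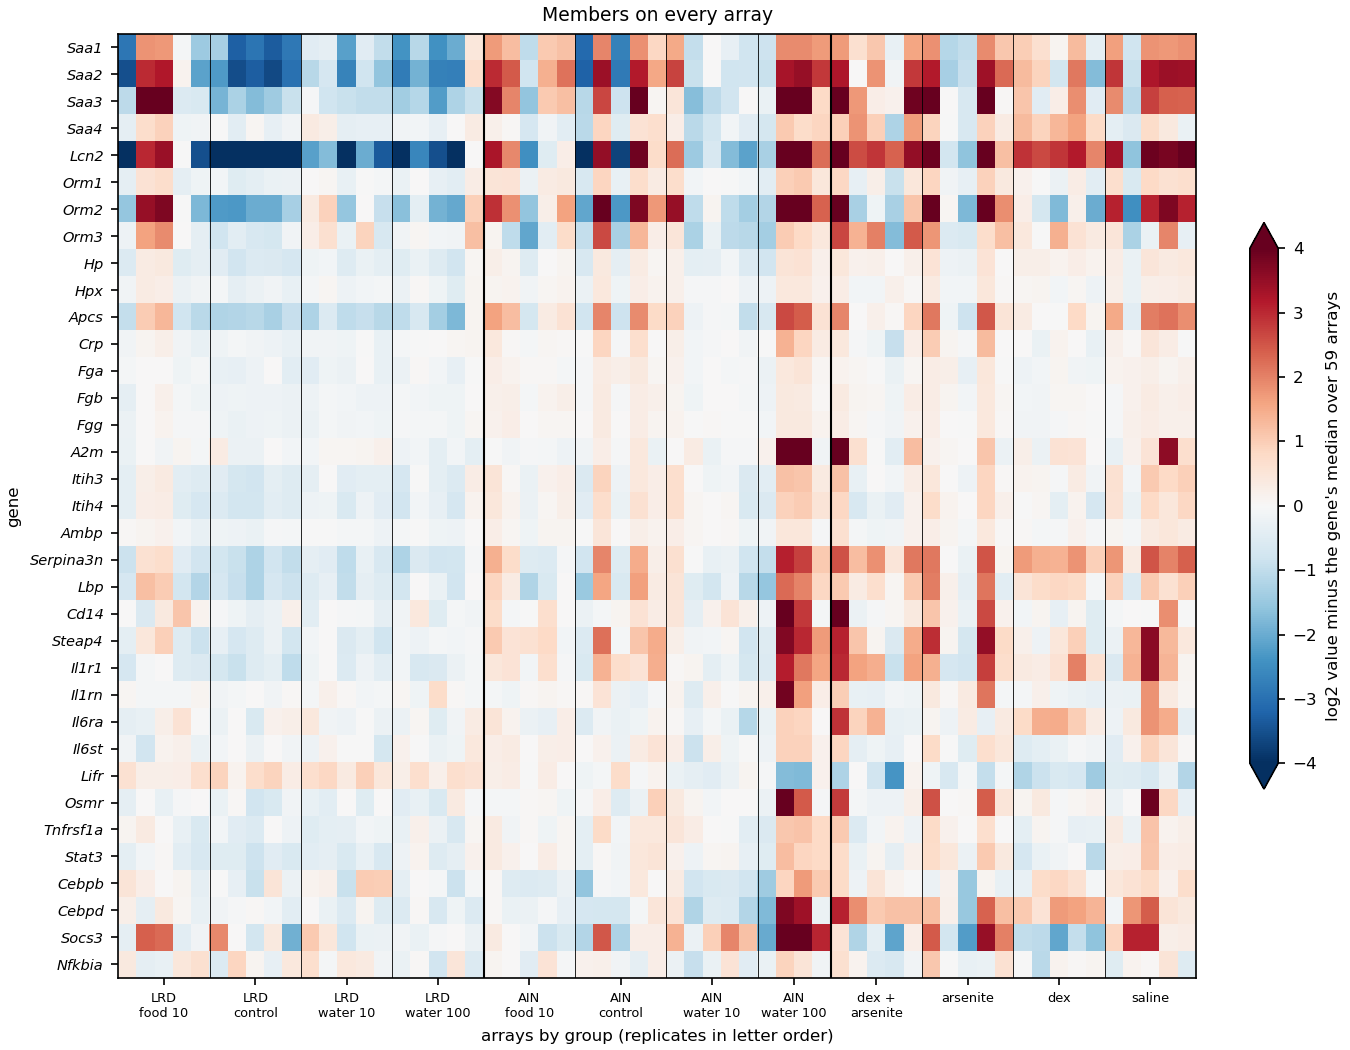
Log2 value of every measured member (down the page, by role) on every array (across, by group), shown as the difference from that member's median over all arrays. Single livers stand out as vertical bands that run through serum amyloids, lipocalin 2, orosomucoids and pentraxins together, as in AIN-76A 100 ppb water arrays B and C.

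The diet comparison, averaged over the 4 arsenic levels, gave the largest number of members past the threshold. In limma's moderated test with Benjamini-Hochberg adjustment over 45037 probe sets and a threshold of 0.05, 16 of 35 members (45.7%) were lower on LRD-5001, 1 was higher and 18 did not pass. Over all probe sets, 1.59% were lower and 2.67% were higher, 4.26% in all. The members' differences had a median of -0.44, with 31 of 35 below 0, against a median of -0.01 over all probe sets. Of all probe sets, 44.4% were above 0. No member separated the 20 LRD-5001 arrays from the 19 AIN-76A arrays completely, as was true of 0.00666% of probe sets in the lower and 0.0555% in the higher direction.

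Among serum amyloids, lipoprotein-bound proteins of the acute phase, Saa1 and Saa2 fell on LRD-5001. Saa2 had a lowest value of 6.24, a median of 7.65 and a highest of 13.07 on LRD-5001, against 6.63, 11.40 and 13.33 on AIN-76A. Saa1 had 8.33, 10.27 and 13.48 on LRD-5001, against 8.54, 12.70 and 13.61 on AIN-76A. Both diets held livers near each end of these ranges, and the medians lay far apart. The difference was -2.64 for Saa2 (SE 0.60, limma adjusted p = 0.00471) and -1.73 for Saa1 (SE 0.44, adjusted p = 0.0145). Saa3, which is made by macrophages as well as hepatocytes, differed by -1.72 without passing the test (adjusted p = 0.101). Saa4, the constitutive serum amyloid, differed by -0.03. The probe sets for Saa1 and Saa2 belong to types that can bind near-identical copies, so the split between the 2 genes is uncertain.

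Lcn2 had the largest diet difference of the list. It ran from a lowest value of 2.39 over a median of 4.28 to a highest of 11.25 on LRD-5001, against 3.76, 8.07 and 12.50 on AIN-76A. The difference was -3.34 (SE 0.74, limma adjusted p = 0.0038). The other members of its class did not pass the test. Orm2 differed by -1.78 (adjusted p = 0.111), Orm1 by -0.38 and Orm3 by 0.24, and these near-identical orosomucoid genes may share probes. The heme scavenger Hpx differed by -0.20 and haptoglobin, Hp, which binds free hemoglobin, by -0.32.

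Both pentraxins fell on LRD-5001. Apcs, serum amyloid P, had a lowest value of 8.66, a median of 9.43 and a highest of 11.77 on LRD-5001, against 9.47, 11.03 and 13.09 on AIN-76A. Its difference was -1.39 (SE 0.29, limma adjusted p = 0.00181), and that of Crp, C-reactive protein, was -0.35 (SE 0.09, adjusted p = 0.0126). All 3 fibrinogen chains, which make up the clotting protein, fell by small amounts that exceeded their small spread. Fga fell by 0.29 (adjusted p = 0.000978), Fgb by 0.24 (adjusted p = 0.00252) and Fgg by 0.24 (adjusted p = 0.000156) on the log2 scale.

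Of 5 protease inhibitors and relatives, 4 fell. Serpina3n, an antichymotrypsin-like inhibitor, had 8.36, 8.85 and 10.29 as its lowest, median and highest values on LRD-5001, against 8.64, 9.57 and 12.71 on AIN-76A. Its difference was -1.09 (SE 0.27, limma adjusted p = 0.00979). The hyaluronan-binding inter-alpha-trypsin inhibitor heavy chains Itih3 and Itih4 fell by 0.53 and 0.57 (adjusted p = 0.0113 and 0.0045). Ambp, the precursor of the light chain bikunin, fell by 0.21 (adjusted p = 0.0221). A2m, a broad protease trap, differed by -0.87 without passing (adjusted p = 0.22).

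In the endotoxin and iron class, Steap4, a metalloreductase, fell on LRD-5001. It had 7.75, 8.31 and 9.53 as its lowest, median and highest values on LRD-5001, against 7.83, 9.14 and 12.29 on AIN-76A, and differed by -1.07 (SE 0.24, limma adjusted p = 0.00443). Cd14, the endotoxin co-receptor, differed by -0.70 and Lbp, which hands endotoxin to it, by -0.62, both short of the threshold.

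Among 7 receptors and antagonists, 2 fell and 1 rose on LRD-5001. Il1r1, the signalling IL-1 receptor, fell by 1.00 (SE 0.19, limma adjusted p = 0.000605) and Tnfrsf1a, a TNF receptor, fell by 0.44 (SE 0.12, adjusted p = 0.0244). Lifr, the receptor for leukemia inhibitory factor, rose by 0.73 (SE 0.13, adjusted p = 0.000168), a 1.66-fold higher level. Lifr had 9.93, 10.36 and 10.73 as its lowest, median and highest values on LRD-5001, against 8.02, 9.73 and 10.50 on AIN-76A. Osmr, the oncostatin M receptor, differed by -0.65 (adjusted p = 0.0853), Il1rn, the IL-1 receptor antagonist, by -0.36, Il6st by -0.28 and Il6ra by -0.02. The other probe set of Il1r1 had the opposite sign without being called.

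Of the 5 transcription factors and inhibitors, Stat3 fell by 0.58 (SE 0.10, limma adjusted p = 0.000236). Of the 4 Stat3 probe sets, 1 was called and 1 had the opposite sign without being called. Socs3 differed by -0.70 (adjusted p = 0.486), Cebpd by -0.23, Cebpb by 0.12 and Nfkbia by 0.07. All 16 members that fell were below 0 at each of the 4 arsenic levels, and Lifr was above 0 at each. They were called on the average of these same levels, so their shared sign is largely set by that choice. Of the 18 members that were not called, 7 were also below 0 at each level, and over all probe sets 10.6% were.

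**Figure D3:**
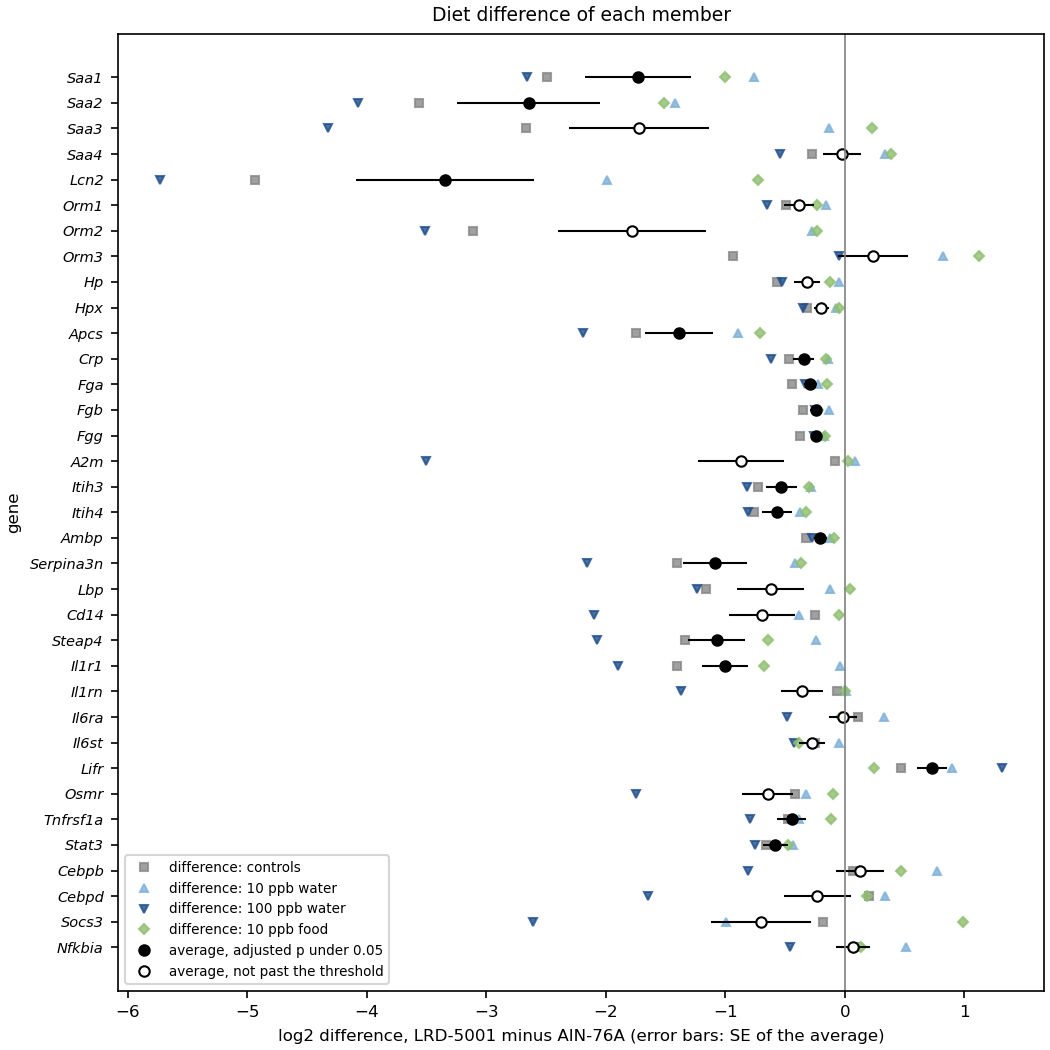
Difference on the log2 scale, LRD-5001 minus AIN-76A, of each measured member (down the page), averaged over the 4 arsenic levels (circles, filled where the adjusted p is under 0.05, bars are SE) and at each level (small marks). The differences at 100 ppb water lie farthest to the left for most members, and Lifr lies to the right of 0 at every level.

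The number of members called for the diet average changed when the 100 ppb water level, or AIN-76A arrays of it, were left out. No other level was left out, so whether this level mattered more than the others was not tested. In controls Saa2 differed by -3.57 and Lcn2 by -4.94, against -4.07 and -5.72 at 100 ppb water. Fgg differed by -0.37 in controls, against -0.26. Both alternatives that follow, without the 100 ppb water level and without its AIN-76A arrays B and C, were added after the data were seen. Averaged over the other 3 levels, 8 members passed in place of 17. These were Apcs, Fga, Fgb, Fgg, Itih4, Il1r1 and Stat3, all lower, and Lifr, higher. With AIN-76A 100 ppb water arrays B and C left out, 11 passed, and Saa2 and Lcn2 were among the 10 lower ones (limma adjusted p = 0.0293 and 0.0301). Without array A of that group, the low one, 28 passed.

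In mice without added arsenic, 1 member passed the test between diets. Fgg had 12.93, 12.82, 12.88, 12.91 and 12.85 in LRD-5001 controls, against 13.12, 13.46, 13.10, 13.39 and 13.21 in AIN-76A controls. Every LRD-5001 array was below every AIN-76A array. The difference was -0.37 (SE 0.08, limma adjusted p = 0.0187). Over all probe sets 0.169% were called lower and 0.568% in either direction. Below 0 were 30 of 35 members, whereas 48.6% of probe sets were above 0. The count was 0 without AIN-76A control C or E or without LRD-5001 control C or F, 2 without LRD-5001 control E, and 4 without AIN-76A control B.

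Lcn2, Apcs, Crp, Fgb, Ambp and Stat3 also had every LRD-5001 control below every AIN-76A control, 7 members in all with Fgg, against 0.746% of probe sets. None of these 6 passed the adjusted test. The AIN-76A controls were split. Saa2 was 13.26, 13.03 and 11.40 in arrays C, E and F and 6.63 and 7.02 in arrays B and D, and all LRD-5001 controls lay between 6.24 and 7.58. Lcn2 was 11.33, 11.71 and 8.53 in the same 3 arrays and 3.76 and 4.11 in B and D, with LRD-5001 controls between 2.44 and 3.43. Of the 5 AIN-76A controls, 2 were thus close to the LRD-5001 level and 3 were far above it.

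At 100 ppb in water, 10 of 35 members passed between diets (28.6%), against 2.05% of all probe sets. Of these members 9 were lower, against 0.624% of probe sets, and 1 was higher, against 1.43%. Lcn2 had 2.39, 5.20, 4.29, 3.52 and 7.80 on LRD-5001, against 6.51, 12.50, 12.42 and 10.03 on AIN-76A. The lowest AIN-76A array, A, lay below the highest LRD-5001 array, F. The difference was -5.72 (SE 1.55, limma adjusted p = 0.0417).

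A2m had 2.22, 2.29, 2.01, 2.29 and 2.01 on LRD-5001, against 2.58, 9.39, 8.41 and 2.28 on AIN-76A. Arrays B and C were high, and A and D were at the dim end where LRD-5001 also lay. The difference was -3.50 (adjusted p = 0.0077). Cd14 had 3.001, 3.558, 2.653, 3.069 and 2.996 on LRD-5001, against 2.95, 8.60, 5.99 and 3.08 on AIN-76A, with a difference of -2.10 (adjusted p = 0.0449). Again arrays B and C carried the high values, and the groups overlapped.

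Apcs had 9.43, 9.80, 9.09, 8.65 and 10.57 on LRD-5001, against 9.81, 13.09, 12.88 and 11.03 on AIN-76A, and differed by -2.19 (limma adjusted p = 0.0447). Serpina3n had 8.37, 9.03, 8.83, 8.84 and 9.55 on LRD-5001, against 8.64, 12.71, 12.34 and 10.65 on AIN-76A, and differed by -2.16 (adjusted p = 0.0291). Steap4 had 8.48, 8.40, 8.52, 8.49 and 8.54 on LRD-5001, against 8.07, 12.29, 11.61 and 10.28 on AIN-76A, and differed by -2.08 (adjusted p = 0.0199). In all 3 genes AIN-76A arrays B, C and D lay above every LRD-5001 array. Array A lay among the LRD-5001 arrays for Apcs and Serpina3n and below all of them for Steap4. Il1r1 (-1.90, adjusted p = 0.00674), Il1rn (-1.37, adjusted p = 0.0395) and Osmr (-1.74, adjusted p = 0.029) were also lower. Lifr was 1.31 higher (adjusted p = 0.00456) with no overlap between the groups, as 2.6% of probe sets showed in that direction. Saa3 had every LRD-5001 array below every AIN-76A array, as 1.7% of probe sets did, and missed the threshold (-4.32, adjusted p = 0.0552). The count went to 0 without AIN-76A array B and to 2 without array C. It was 29 without array A, the low one. Without LRD-5001 array A it was 4, without B 4, without D 5 and without E 5.

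At 10 ppb in water and 10 ppb in food, no member passed limma's adjusted test between diets, against 0.344% and 0.295% of probe sets. For each, 3 members had an unadjusted limma p under 0.05, against 3358 of 45037 probe sets in water and 2222 in food. At 10 ppb in water Lifr had 10.44, 10.60, 10.13, 10.73 and 10.22 on LRD-5001, against 9.49, 9.40, 9.31, 9.55 and 9.89 on AIN-76A. All LRD-5001 arrays were above all AIN-76A arrays, as 0.893% of probe sets were. The difference was 0.90 (SE 0.25, limma adjusted p = 0.141). Fgg was lower without overlap there, as 0.87% of probe sets were, with a difference of -0.18 (adjusted p = 0.633), and Stat3 differed by -0.43 (adjusted p = 0.637). At 10 ppb in food Stat3 differed by -0.48, Fgb by -0.22 and Fgg by -0.17 (limma adjusted p = 0.88, 0.952 and 1).

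**Figure D4:**
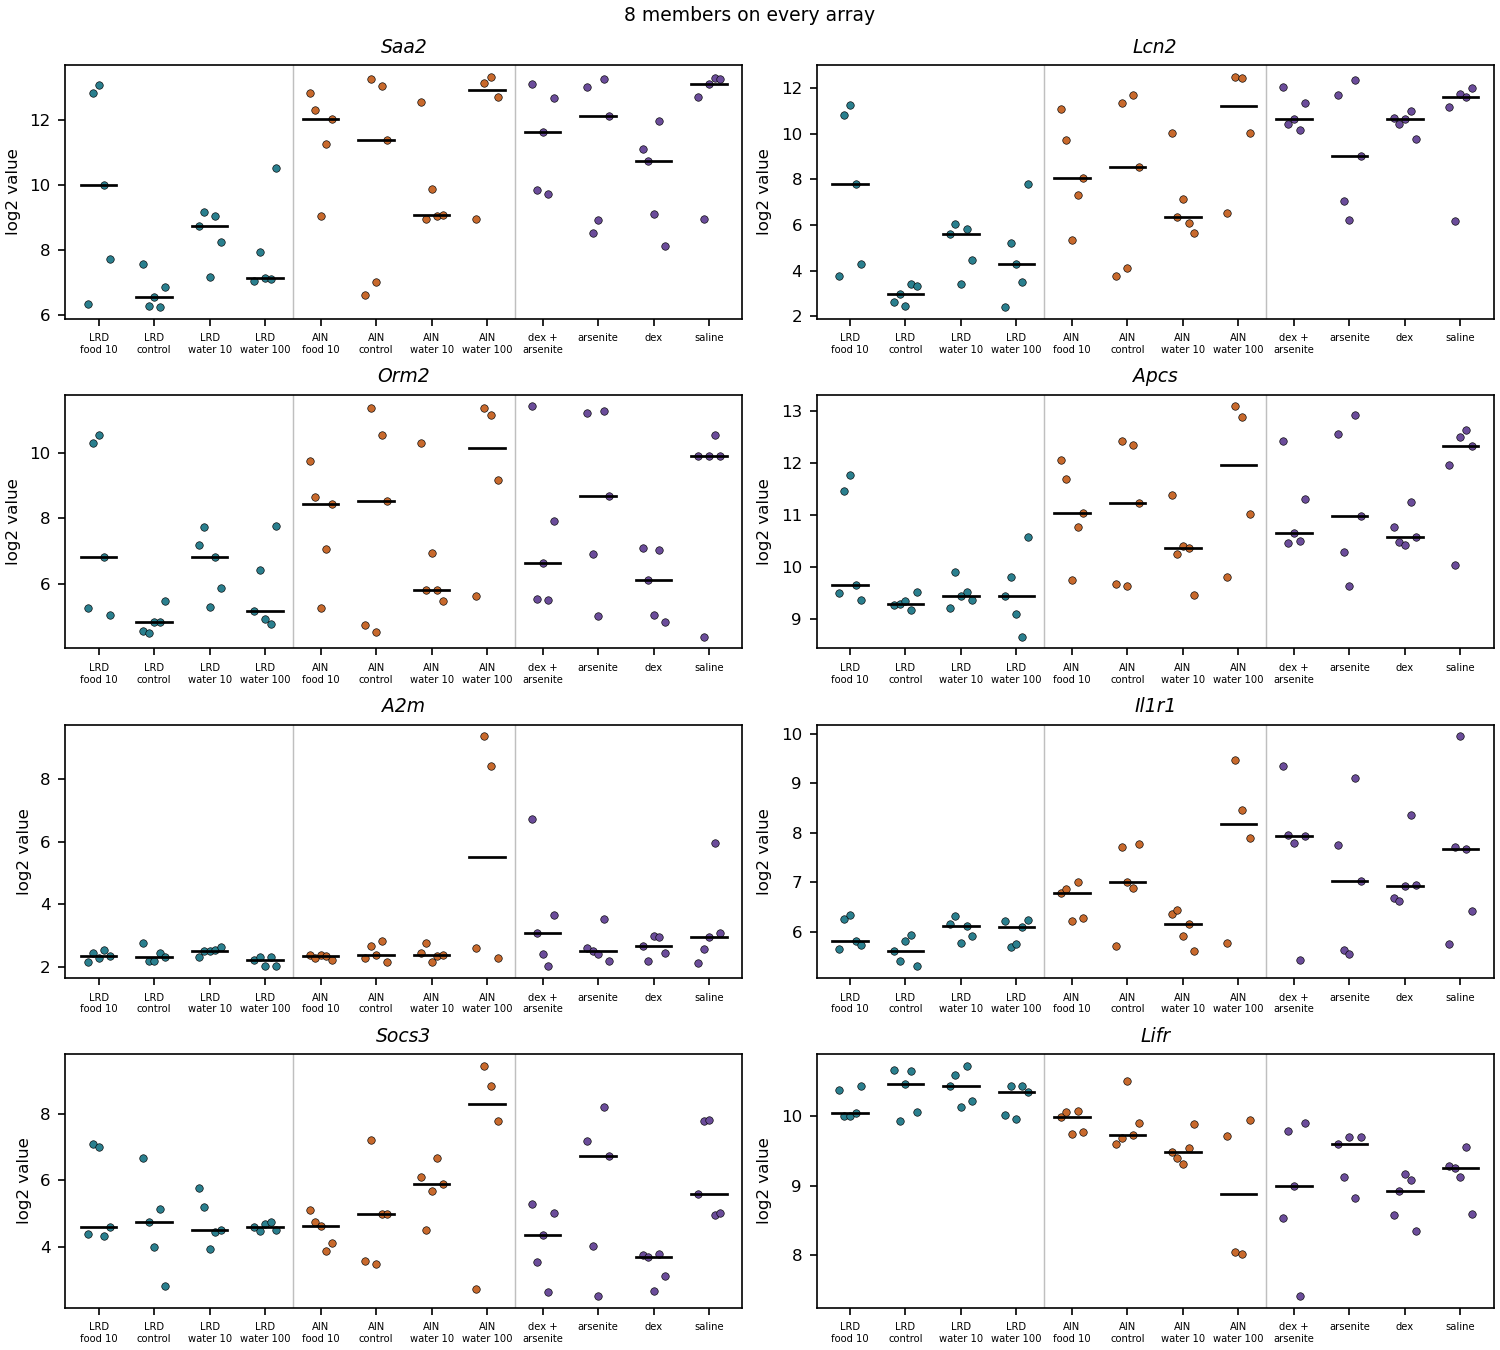
Log2 value of 8 members on every array, by group, with 1 point per array and a black line at each group median. Saa2, Lcn2 and Orm2 show livers at both extremes within single groups, A2m stays near the dim end except on a few arrays, and Lifr is lowest on AIN-76A 100 ppb water arrays B and C among the arrays exposed for 5 weeks.

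Arsenite at 100 ppb in water on AIN-76A was compared with AIN-76A alone. No member passed limma's adjusted test, against 0.00888% of probe sets. An unadjusted limma p under 0.05 was found for 11 of 35 members and 3996 of 45037 probe sets. The members' differences had a median of 0.59, and 33 of 35 were above 0, against 50.9% of probe sets. A2m had 2.58, 9.39, 8.41 and 2.28 with arsenite, against 2.27, 2.66, 2.35, 2.83 and 2.14 without. Arrays B and C stood more than 5 log2 units above every control and A and D lay within the controls. The difference was 3.22 (SE 0.75, limma adjusted p = 0.106).

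Il1rn had 4.14, 7.82, 5.59 and 4.22 with arsenite, against 4.005, 4.50, 3.73, 3.63 and 3.91 without, a difference of 1.49 (SE 0.37, limma adjusted p = 0.119). Lifr had 9.71, 8.04, 8.02 and 9.95 with arsenite, against 9.60, 9.69, 10.50, 9.73 and 9.90 without, a difference of -0.96 (SE 0.26, adjusted p = 0.162). Arrays B and C were again the extreme ones, high for Il1rn and low for Lifr. Without array A, 11 members passed, 10 higher and 1 lower, and without array D, 5 passed. The scores of arrays A, B, C and D were 7.92, 10.72, 10.39 and 9.23.

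Markers outside the list moved with these arrays. Of 14 lists of other pathway genes and cell type markers, arrays B and C both lay above the range of the AIN-76A controls in 6, both below it in 3, and not both outside it on the same side in 5. The mean of 12 glucocorticoid target genes was 7.01, 8.88, 8.75 and 7.63 in arrays A, B, C and D, against 6.79 to 7.47 in AIN-76A controls. It was 8.74 to 9.26 in mice injected with dexamethasone and 7.49 to 8.68 in mice injected with saline. Fkbp5, a glucocorticoid target and receptor co-chaperone, was 5.17, 8.82, 8.55 and 5.86 in those 4 arrays, against 4.91 to 6.22 in controls. Not all of the 12 targets followed. Tsc22d3 was 6.10 to 7.02 in the 4 arrays, against 6.42 to 7.33 in controls, and Klf9 was 9.79 to 10.60, against 9.78 to 10.53. Mt2, a metallothionein induced by metals and glucocorticoids, was 6.16, 12.36, 12.38 and 10.87, against 3.48 to 11.77 in controls. The mean of the 10 measured of 12 neutrophil markers was 2.60, 3.87, 3.67 and 3.18 in arrays A to D, against 2.44 to 3.21 in controls. S100a8, a calprotectin subunit, was 2.15, 7.42, 7.67 and 6.35, against 2.25 to 5.78, and Ngp, a granule protein, was 4.12 in B and 3.64 in C, against 2.23 to 2.99. Of the 10 markers, 6 were above every control in array B and 6 in array C, 5 of them in both. Mpo, Camp and Cxcr2 were above every control in neither. Mpo and Elane, granule enzymes, lay between 1.87 and 2.67 in both groups, at the dim end of the arrays. The mean of 13 Kupffer cell markers was 6.77 to 7.13 with arsenite, against 6.77 to 7.72 without. The mean of 8 endothelial markers was 4.67, 5.41, 5.66 and 4.65 in arrays A to D, against 4.71 to 5.19 in controls, and B and C were the highest of all 59 arrays. The mean of 11 negative acute phase proteins was 12.04, 11.83, 11.77 and 12.08, against 12.005 to 12.109. The largest fall in group mean among them was that of Serpina6, with 8.09 with arsenite against 9.17 in controls. Alb was 13.63 to 13.68, against 13.60 to 13.76. Ahsg, Fetub and Igf1 had higher group means with arsenite, and the others lower ones. B and C also lay above the controls for the mean of bile duct markers and below them for B cell and for T and NK cell markers. Among B cell markers, Ighm had a median of 5.75 with arsenite, against 8.22 in controls. The others lay between 1.97 and 3.46 in both groups. Of these, Cd79a, Ms4a1 and Pax5 had higher group means with arsenite, and Cd79b and Jchain lower ones. Among bile duct markers, Sox9 was 3.81 to 4.92, against 3.59 to 4.07, and the others lay between 1.87 and 3.48. The part of these markers in the members' values was not tested.

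With 10 ppb arsenite in food on LRD-5001, no member passed limma's adjusted test, as no probe set did (0%). An unadjusted limma p under 0.05 was found for 7 members, against 1031 of 45037 probe sets. Lcn2 had 3.75, 10.83, 11.25, 7.79 and 4.28 with arsenite, against 2.60, 2.97, 2.44, 3.43 and 3.32 without. The groups did not overlap, as was true of 0.269% of probe sets in that direction. The difference was 4.63 (SE 1.46, limma adjusted p = 1).

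Saa1 had 8.76, 13.48, 13.39, 11.58 and 10.21 with arsenite in food, against 10.33, 8.41, 8.76, 8.33 and 8.81 without, a difference of 2.56 (adjusted p = 1). Saa2 had 6.33, 12.83, 13.06, 9.99 and 7.72, against 7.58, 6.29, 6.54, 6.24 and 6.85, a difference of 3.29 (adjusted p = 1). Arrays C and D were the highest for all 3 genes and array B lay within the controls for Saa1 and Saa2. Of the 35 members, 32 were above 0, against 50.4% of probe sets.

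With 10 ppb in water on LRD-5001, 31 of 35 members were above 0, against 49.2% of probe sets. No member passed limma's adjusted test (0% of probe sets did). An unadjusted limma p under 0.05 was found for 1 member, against 1054 of 45037 probe sets. Saa1 had 11.22, 11.32, 9.51, 11.23 and 10.69 with arsenite, against 10.33, 8.41, 8.76, 8.33 and 8.81 without, a difference of 1.86 (SE 0.87, limma adjusted p = 1). Of the arsenite arrays, 4 lay above every control and array D lay below the highest control. Saa2 differed by 1.78, with 8.75, 9.17, 7.17, 9.05 and 8.26 against 7.58, 6.29, 6.54, 6.24 and 6.85. Hp differed by 0.32, with 12.97, 13.02, 12.63, 12.87 and 12.75 against 12.67, 12.36, 12.57, 12.56 and 12.47. In both genes only array D fell inside the range of the controls.

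With 100 ppb in water on LRD-5001, 28 of 35 members were above 0, against 50.7% of probe sets. No member passed limma's adjusted test (0% of probe sets did). An unadjusted limma p under 0.05 was found for 1 member, against 1055 of 45037 probe sets. Stat3 had 7.75, 8.11, 7.46, 7.62 and 8.14 with arsenite, against 7.49, 7.49, 7.15, 7.52 and 7.36 without, a difference of 0.42 (SE 0.20, limma adjusted p = 1). Fgg had 13.07, 13.03, 13.02, 12.92 and 13.19, against 12.93, 12.82, 12.88, 12.91 and 12.85, a difference of 0.16. In each gene 1 arsenite array, D for Stat3 and E for Fgg, lay inside the range of the controls. Saa1 differed by 1.25, with 9.27, 10.56, 9.26, 9.69 and 12.12 against the control values given above. Steap4 was higher without overlap, as 0.335% of probe sets were, and differed by 0.39 (limma adjusted p = 1).

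On AIN-76A, 10 ppb in water gave 31 of 35 members below 0, whereas 50.9% of probe sets were above 0. No member passed limma's adjusted test (0% of probe sets). An unadjusted limma p under 0.05 was found for 2 members, against 2178 of 45037 probe sets. Il1r1 had 6.37, 6.45, 5.92, 6.16 and 5.62 with arsenite, against 5.72, 7.72, 7.02, 6.88 and 7.78 without, a difference of -0.92 (SE 0.38, limma adjusted p = 0.993). Steap4 had 8.83, 8.44, 8.49, 8.67 and 7.83, against 8.06, 10.80, 8.51, 9.70 and 10.06, a difference of -0.98 (adjusted p = 0.993). In both genes the arsenite arrays lay near the lower controls, B for Il1r1 and B and D for Steap4. Fga differed by -0.20.

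With 10 ppb in food on AIN-76A, no member passed limma's adjusted test and no probe set was called (0%). No member had an unadjusted limma p under 0.05, against 1635 of 45037 probe sets. Of 35 members, 14 were above 0, against 48.8% of probe sets. Orm3 differed by -0.93, Saa1 by 1.07 and Il6ra by 0.27 (limma adjusted p = 1 for each). Saa1 had 13.36, 12.91, 10.65, 12.70 and 12.84 with arsenite, against 8.54, 13.61, 8.98, 13.48 and 12.49 without. The arsenite arrays lay inside the range of the controls. The test of whether arsenite acted differently on the 2 diets called no member at any exposure (0% of probe sets). At 100 ppb in water A2m had the smallest p, with a difference of differences of -3.42 (SE 1.03, limma adjusted p = 0.667). An unadjusted limma p under 0.05 was found there for 6 of 35 members, against 2757 of 45037 probe sets. Without AIN-76A 100 ppb water array A, 2 members passed, both lower.

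After injection, dexamethasone acted on the liver as measured by Fkbp5. Fkbp5 had 9.50, 9.63, 10.20, 9.94 and 9.52 with dexamethasone, against 5.85, 6.84, 8.54, 7.01 and 5.64 with saline, and rose by 2.98 (limma adjusted p = 0.00565). Tsc22d3, another direct glucocorticoid target, was 1.03 higher without overlap and did not pass (adjusted p = 0.171). With both agents Fkbp5 rose by 2.93 (adjusted p = 0.0108).

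No member passed limma's adjusted test for dexamethasone against saline, against 1.74% of all probe sets. Below 0 were 31 of 35 members, whereas 45.6% of probe sets were above 0. An unadjusted limma p under 0.05 was found for 8 members, against 5039 of 45037 probe sets. Stat3 had 7.30, 7.70, 7.83, 7.97 and 6.88 with dexamethasone, against 8.21, 8.22, 9.08, 8.22 and 8.27 with saline. Socs3 had 3.75, 3.69, 2.66, 3.77 and 3.12 with dexamethasone, against 5.60, 7.79, 7.82, 4.95 and 5.03 with saline. For both genes every dexamethasone array lay below every saline array, as 1.93% of probe sets did.

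The difference was -0.86 for Stat3 (SE 0.25, limma adjusted p = 0.106) and -2.84 for Socs3 (SE 0.88, adjusted p = 0.131). Saa4 went the other way, with 11.99, 11.61, 12.05, 12.32 and 11.47 with dexamethasone, against 10.33, 10.14, 11.45, 11.10 and 10.45 with saline. Its groups did not overlap, as was true of 1.88% of probe sets in the higher direction, and it differed by 1.20 (SE 0.45, limma adjusted p = 0.256). Orm2 differed by -2.90 and Saa2 by -2.05, and Lcn2 by -0.04, none past the threshold. The score ranged from 8.36 to 9.10 with dexamethasone, against 8.46 to 9.95 with saline.

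Arsenite injection gave no call in limma's adjusted test for any member or probe set (0%). Below 0 were 22 of 35 members, whereas 50.5% of probe sets were above 0. An unadjusted limma p under 0.05 was found for 1 member, against 1414 of 45037 probe sets. Cebpb, a transcription factor of the acute phase, had 7.74, 8.11, 6.44, 8.07 and 7.67 with arsenite, against 8.42, 8.53, 8.72, 8.12 and 8.66 with saline. All arsenite arrays lay below all saline arrays, as 0.218% of probe sets did. The difference was -0.88 (SE 0.28, limma adjusted p = 1).

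Serpina3n differed by -0.91 and Itih3 by -0.42 after arsenite. Serpina3n had 11.69, 9.59, 9.34, 12.10 and 9.71 with arsenite, against 11.36, 9.93, 12.11, 11.58 and 11.99 with saline. Arsenite arrays A and E were high and B, D and F were low, whereas saline array B was the low one of its group.

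With both agents, no member passed limma's adjusted test against saline, against 0.926% of probe sets. Below 0 were 25 of 35 members, whereas 47.5% of probe sets were above 0. An unadjusted limma p under 0.05 was found for 1 member, against 4406 of 45037 probe sets. Socs3 had 5.27, 3.53, 4.34, 2.63 and 5.00 with both agents, against 5.60, 7.79, 7.82, 4.95 and 5.03 with saline, a difference of -2.08 (SE 0.88, limma adjusted p = 0.414). The groups overlapped through arrays A and F. Itih4 differed by -0.55 and Saa4 by 0.85, neither past the threshold. Without array E of the group given both agents, 1 member passed, in the higher direction. Arsenite on top of dexamethasone called no member or probe set (0%). There no member had an unadjusted limma p under 0.05, against 1744 of 45037 probe sets. Dexamethasone on top of arsenite called no member against 0.881% of probe sets. An unadjusted limma p under 0.05 was found for 2 members, against 4590 of 45037 probe sets. These were Crp (-0.56, adjusted p = 0.451) and Cebpb (0.59, adjusted p = 0.488). The interaction of the 2 agents called no member and no probe set (0%). In it no member had an unadjusted limma p under 0.05, against 1560 of 45037 probe sets.

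**Figure D5:**
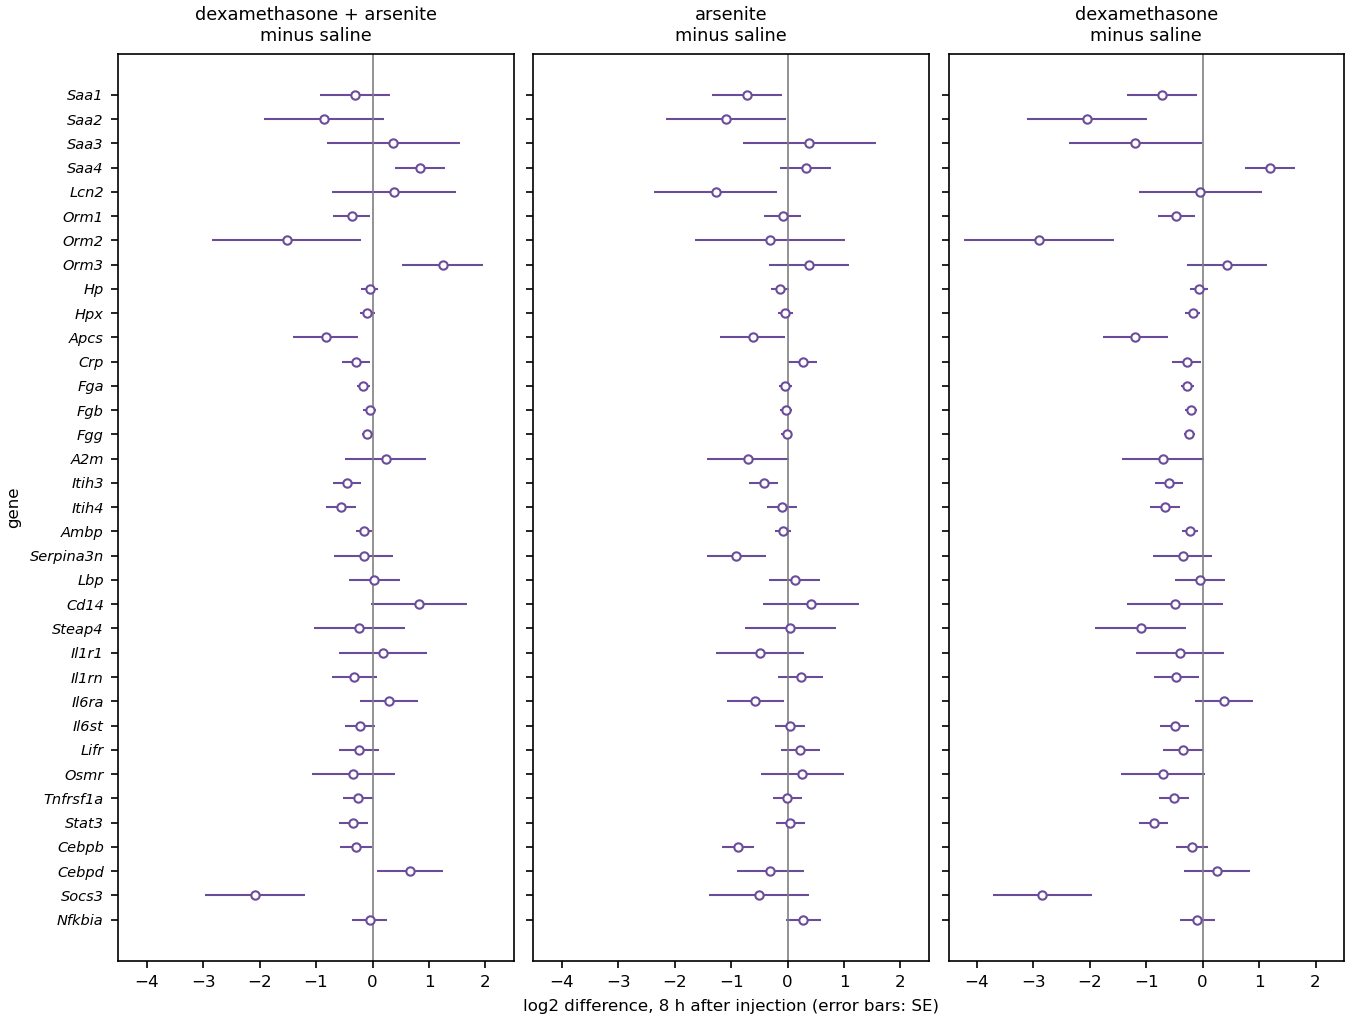
Difference on the log2 scale of each measured member (down the page) for dexamethasone with arsenite, arsenite, and dexamethasone, each minus saline, with bars for the SE from 5 arrays per group. Open circles mark members short of the threshold, which all are. Socs3 lies near -2.84 with dexamethasone and -2.08 with both agents.

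The saline group itself was uneven. Saline array B had 10.86 for Saa1, 6.18 for Lcn2 and 4.37 for Orm2, the lowest of its group for each. Saline array E had a neutrophil marker mean of 5.66, against 2.71 to 3.01 in the other saline arrays, with 5.97 for A2m and 5.02 for Cd14. The neutrophil mean was 2.27 to 2.42 with dexamethasone. The Kupffer cell mean was 6.07 to 6.46 with dexamethasone. With saline it was 8.67 in array E and 6.08 to 7.11 in the other arrays. Between dexamethasone and saline, 12 of 13 Kupffer markers and 9 of 10 neutrophil markers were below 0 without a call. Array E enters all of these counts, and 45.6% of probe sets were above 0. The part of these cells was not tested.

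Saline-injected mice were also set against the undisturbed AIN-76A controls of the 5-week experiment. No member and no probe set passed limma's adjusted test (0%), and 29 of 35 members were above 0, against 49% of probe sets. An unadjusted limma p under 0.05 was found for 5 members, against 1989 of 45037 probe sets. Serpina3n differed by 1.32, with 11.36, 9.93, 12.11, 11.58 and 11.99 after saline against 8.83, 11.56, 9.09, 11.08 and 9.82 without injection. Lifr differed by -0.72, with 9.28, 9.25, 9.13, 9.55 and 8.59 after saline against 9.60, 9.69, 10.50, 9.73 and 9.90. Every saline array was below every undisturbed array for Lifr, as 0.282% of probe sets were. Cebpd differed by 1.33. Injection, experiment and duration cannot be told apart here.

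Genes of the same pathway outside the list were read from lists of their own. Of 18 measured other acute phase proteins, 7 were lower and 1 higher on LRD-5001 averaged over levels, a share of 44.4%, near that of the members. Lower were Fgl1, a fibrinogen-like hepatokine, by -0.95, Lrg1 by -0.86, Pglyrp2, a peptidoglycan amidase, by -0.47, Cd5l by -0.37, and the copper carrier Cp and the C1 inhibitor Serping1 by -0.33 each, with complement factor Cfb at -0.28. F13b, a subunit of clotting factor XIII, was 0.38 higher. Cd5l is counted again below as a Kupffer cell marker, and Fgl1 among the genes that followed the score most closely. These counts are therefore not separate results. None of the 10 measured cytokine ligands passed, and they lay near the dim end, with a mean of 3.09 to 3.37 in the 4 LRD-5001 groups and 3.01 to 3.38 in the 4 AIN-76A groups. Of 35 other signal transduction genes, Ikbkg was 0.34 higher and Tlr2 0.66 lower. Of 11 negative acute phase proteins, which the liver makes less of during inflammation, Rbp4, the retinol carrier, was 0.15 higher. Over all probe sets 4.26% were called, so the few calls in these last lists say little about the lists.

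Cell type markers were read for the same diet comparison. Hepatocyte identity was plain, with albumin, Alb, between 13.60 and 13.98 on all arrays. Of 13 Kupffer cell markers, 4 were lower on LRD-5001 (C1qa -0.42, Clec4f -0.40, Cd5l -0.37 and Csf1r -0.33), 1 was higher (Slc40a1 0.47) and 12 of 13 were below 0. Their mean ran from 6.61 to 7.64 on LRD-5001, against 6.77 to 7.72 on AIN-76A. Of 10 neutrophil markers, S100a8 (-1.25) and S100a9 (-1.30) were lower and all 10 were below 0, with a mean of 2.31 to 2.74 on LRD-5001 against 2.34 to 3.87 on AIN-76A. Of 6 measured B cell markers, Ighm was lower by -2.40. Of 12 glucocorticoid targets, Cdkn1a (-1.02) and Zbtb16 (-0.54) were lower. Over all probe sets 4.26% were called and 44.4% were above 0, so a single call in a short list says little about that list. The part of these cells and of glucocorticoid targets in the members' diet difference was not tested.

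Genes outside the list whose values followed the score most closely within groups were led by Serpina10, the protein Z-dependent inhibitor, with a correlation of 0.96 over 59 arrays. Dnajc12 had 0.92, Cyb561, Fgl1, Prg4 and Cd302 had 0.91, Cpne8 0.90 and Prtn3 0.89. Of 18158 genes outside the list, 37 had a correlation over 0.8. Of these 8 genes, 6 were lower on LRD-5001 averaged over levels in limma's adjusted test, against 1.59% of probe sets. The 8 were chosen because they followed the score on these same arrays, so their calls are not separate from those of the members. Prtn3, annotated as the neutrophil protease proteinase 3, differed by -1.81 (adjusted p = 0.0291), Dnajc12 by -1.60 (adjusted p = 0.00419) and Prg4, lubricin, by -1.15 (adjusted p = 0.00136). Fgl1 (-0.95), Serpina10 (-0.54) and Cd302 (-0.37) were also lower, and Cpne8 (-1.06, adjusted p = 0.054) and Cyb561 (-0.83, adjusted p = 0.126) did not pass.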

How the data were processed

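RNA of 59 mouse livers was measured on 1-colour Affymetrix arrays, 1 array per sample. The authors deposited log2 expression values per probe set. RMA is the tool named for them per the submitters' processing notes. Its version was not given in the sources used here. RMA pulls dim probe sets together, so differences of dim genes such as A2m, Osmr and Il6ra can be understated. The deposited log2 values ran from 1.17 to 14.15, with array medians from 2.42 to 2.59, and were used without further normalization or filtering. The number of arrays limits the precision. No other value columns were set aside (0).

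Of 45101 probe sets, 64 controls were left out. By the platform annotation, 34945 of the tested probe sets name 1 gene and 932 name several. The 35 measured members have 61 probe sets, and 15 members have more than 1. The closest pair of arrays had a correlation of 0.994, so none was a duplicate.

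A linear model of group means was fitted to all probe sets (limma 3.58.1, R 4.3.3), in 1 fit for the 39 arrays of 8 groups exposed for 5 weeks, in 1 for the 20 injection arrays, and in 1 over all 59 arrays for saline against undisturbed controls. P-values were adjusted by Benjamini-Hochberg over 45037 probe sets with a threshold of 0.05, and the fit was tested on simulated data. An average over levels weights the levels equally, so it can differ slightly from the difference of diet means. Alternatives were all 59 arrays in 1 fit, only the groups compared, quantile normalization, a variance trend with robust prior, probe sets above the median only, 1 probe set per gene, the mean of a gene's probe sets, a replicate block, the arrays apart as a block or left out, and each array left out. The 12 arrays apart, named above, are in each group the array with the lowest value on the first principal component of deviations from group means. Their upper quartile differed from that of the others by -0.27 log2 units on average.

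In each comparison every called member could be named, and array values are given for the 6 called members with the largest difference, or for the 3 with the smallest p where few or none was called. Outside the members, the 8 genes most like the score, called genes of the other lists, and Fkbp5 and Tsc22d3 as a check of dexamethasone were named. The members and lists were chosen with earlier results of these data known. Promoter letters came from RefSeq on GRCm38.p6, and protein sequences were not used here.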

Additional observations from a re-analysis of the deposited data

Results flagged for a closer look

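Single arrays stood apart from the rest of their group in 39 of 420 combinations of member and group (9.29%), by the gap of the extreme array to its nearest neighbour (Dixon's test), where chance gives about 1 in 20. Most came from a few livers. Saline array B was the lowest of its group for Saa1 (10.9), Saa2 (8.95), Saa3 (5.2), Lcn2 (6.18), Orm1 (11.6), Orm2 (4.37), Hp (12.9), Hpx (12.7), Apcs (10) and Lbp (8.31), all log2 values. Saline array E was the highest for A2m (5.97) and Cd14 (5.02), and saline array C for Osmr (6.54) and Stat3 (9.08).

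AIN-76A 100 ppb water array A was the lowest for Saa1 (10.8), Saa2 (8.96) and Saa4 (10). AIN-76A 10 ppb food array D was the lowest for Saa1 (10.6), Orm1 (12) and Hpx (12.8). AIN-76A 10 ppb water array A was the highest for Saa2 (12.6), Orm1 (12.9) and Cebpb (8.28) and had a product score of 10.5, and array C of that group was the lowest for Il1rn (3.43). AIN-76A control B was the lowest for Cebpb (6.38).

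On LRD-5001, control B was the highest for Saa1 (10.3), 100 ppb water array F for Saa2 (10.5) and Orm3 (5.58), and array D of that group for Il1rn (4.69). The 10 ppb water array A was the highest for Saa3 (6.23) and array C for Itih3 (11.4).

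Of the mice given dexamethasone with arsenite, array A was the highest for Cd14 (8.85), Il1rn (4.95) and Osmr (5.42), and array E was the lowest for Saa4 (9.47). With dexamethasone, array E was the highest for Il1r1 (8.35) and array C the lowest for Nfkbia (7.57). With arsenite, array E was the highest for Il1rn (6.09) and array D the lowest for Cebpb (6.44).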

How the results depend on the processing

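Over 28 called values of single members and 1070 settings, 964 kept direction and side of the threshold, 105 kept direction only and 1 turned. Of 466 counts under other settings, 432 stayed within 1.5 times the reported count. The score differences of 11 comparisons moved by less than 1 SD in all 44 settings tried, but 3 changed sign without the arrays apart: 10 ppb food on AIN-76A (0.365, against -0.0129), arsenite injection (0.0757, against -0.179) and the combined injection (0.0681, against -0.15). Cd14 between diets at 100 ppb water turned to 0.0399 with both AIN-76A arrays B and C left out. The diet average called 8 members without the 100 ppb water level and 11 without arrays B and C, against 17, and 15 to 28 with 1 array left out. Diet at 100 ppb water called 4 in 1 fit of 59 arrays, 0 with only the groups compared, 0 without arrays B and C, 5 with the replicate block and 0 to 29 with 1 array left out, against 10. Diet in controls called 2 under each of a variance trend, 1 probe set per gene and the arrays apart as a block, 3 among probe sets above the median, 0 without the arrays apart, 0 with only the groups compared and 0 to 4 with 1 array left out, against 1. Arsenite at 100 ppb in water on AIN-76A called 5 without the arrays apart and 0 to 11 with 1 array left out, against 0. Dexamethasone called 1 in 1 fit of 59 arrays and 2 with only the groups compared, against 0, and diet at 10 ppb water called 1 with only the groups compared, against 0. With 1 array left out, the diet by 100 ppb water interaction called 0 to 2, the combined injection 0 to 1, and all other comparisons 0. The cause of these moves was not tested. In single members, Crp missed the threshold for the diet average in 1 fit of 59 arrays (limma adjusted p = 0.0501), Tnfrsf1a without the arrays apart (0.0724) and Stat3 as the mean of its probe sets (0.106). Replicate letters did not pair samples, since same-letter pairs had a median correlation of -0.004 over 267 pairs and other pairs -0.006 over 1328, and the block moved no other count by over 1.5 times. The fit of only the groups compared was not run for the diet average or the interaction of the injected agents. Small groups, the 4 AIN-76A arrays at 100 ppb in water above all, and dim probe sets limit what these arrays can show.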
